A study of Mus musculus with 6 samples.

Results

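The digestive hydrolases of the brush border were followed as 9 genes, namely lactase (Lct), sucrase-isomaltase (Sis), maltase-glucoamylase (Mgam), trehalase (Treh), intestinal alkaline phosphatase (Alpi), aminopeptidase N (Anpep), glutamyl aminopeptidase (Enpep), dipeptidyl peptidase 4 (Dpp4) and neprilysin (Mme). They were chosen by gene symbol, with earlier results of these data known but by no threshold on a measured value, and all 9 were found among the 18437 mRNAs listed in at least 1 library. The data were Ribo-seq libraries, in which the mRNA fragments covered by translating ribosomes are sequenced. There were 6 libraries, each the only library of its tissue label (small intestine, colon, kidney, lung, heart or brain), all from WT C57BL/6J mice at 4 weeks of age with no treatment. The labels give neither the number of mice behind a library, nor their sex or diet, nor the segment of the intestine. Values are RPKM, the reads on a coding sequence (CDS) divided by its length and by the reads on all CDSs, which is taken here as ribosome density.

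The brush border is the dense carpet of microvilli on the luminal face of enterocytes, the absorptive cells of the small intestine, and of proximal tubule cells of the kidney. Disaccharidases anchored there split milk sugar, sucrose, starch fragments and trehalose, and peptidases release amino acids and short peptides that transporters then take up. In young rodents lactase is the main disaccharidase during suckling, and around weaning it declines while sucrase-isomaltase and trehalase appear. With a single age, these libraries show where the balance stood at 4 weeks and not how it changed.

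Before the levels are read, the labels have to be set against tissue markers, 4 per tissue. Markers of the small intestine (Apoa4, Fabp2 and Apoa1, but not Lypd8) were highest in the library labelled brain, all 4 markers of the kidney (Umod, Slc34a1, Slc12a1 and Kap) in that labelled colon, Muc2, Car1 and Aqp8, markers of the colon, in that labelled kidney, and all 4 markers of the brain in that labelled small intestine. Lypd8 was highest in the library labelled kidney, and Clca4a, listed as a colon marker, in that labelled brain. For heart and lung, marker and label went together for all 4 markers each. Gfap had 0 reads in the library labelled brain, and Aqp8 had 0 reads in that labelled colon. The labels were kept as given, and each library is called by its label throughout. The reads on CDSs were between 4504853 and 10635031 per library. Intervals are 95% and cover counting error only, since 1 library per tissue leaves no replicate error and no test between tissues. Overlap of separate intervals is given as a description and does not show that levels are equal.

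The 9 hydrolases together held 2.53% of all reads in the library labelled brain (95% Clopper-Pearson interval 2.52% to 2.54%). They held 0.104%, 0.0135%, 0.0748%, 0.0767% and 0.0419% under the colon, heart, kidney, lung and small intestine labels. Of the 9 members, 8 had their highest RPKM in the library labelled brain, against 15.1% of all mRNAs compared. The exception was Mme, which was highest in the library labelled colon, as were 15.3% of all mRNAs. In these bulk samples, fewer cells of a type and less RNA per cell cannot be told apart, and neither can more mRNA and more ribosomes per mRNA.

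**Figure D1:**
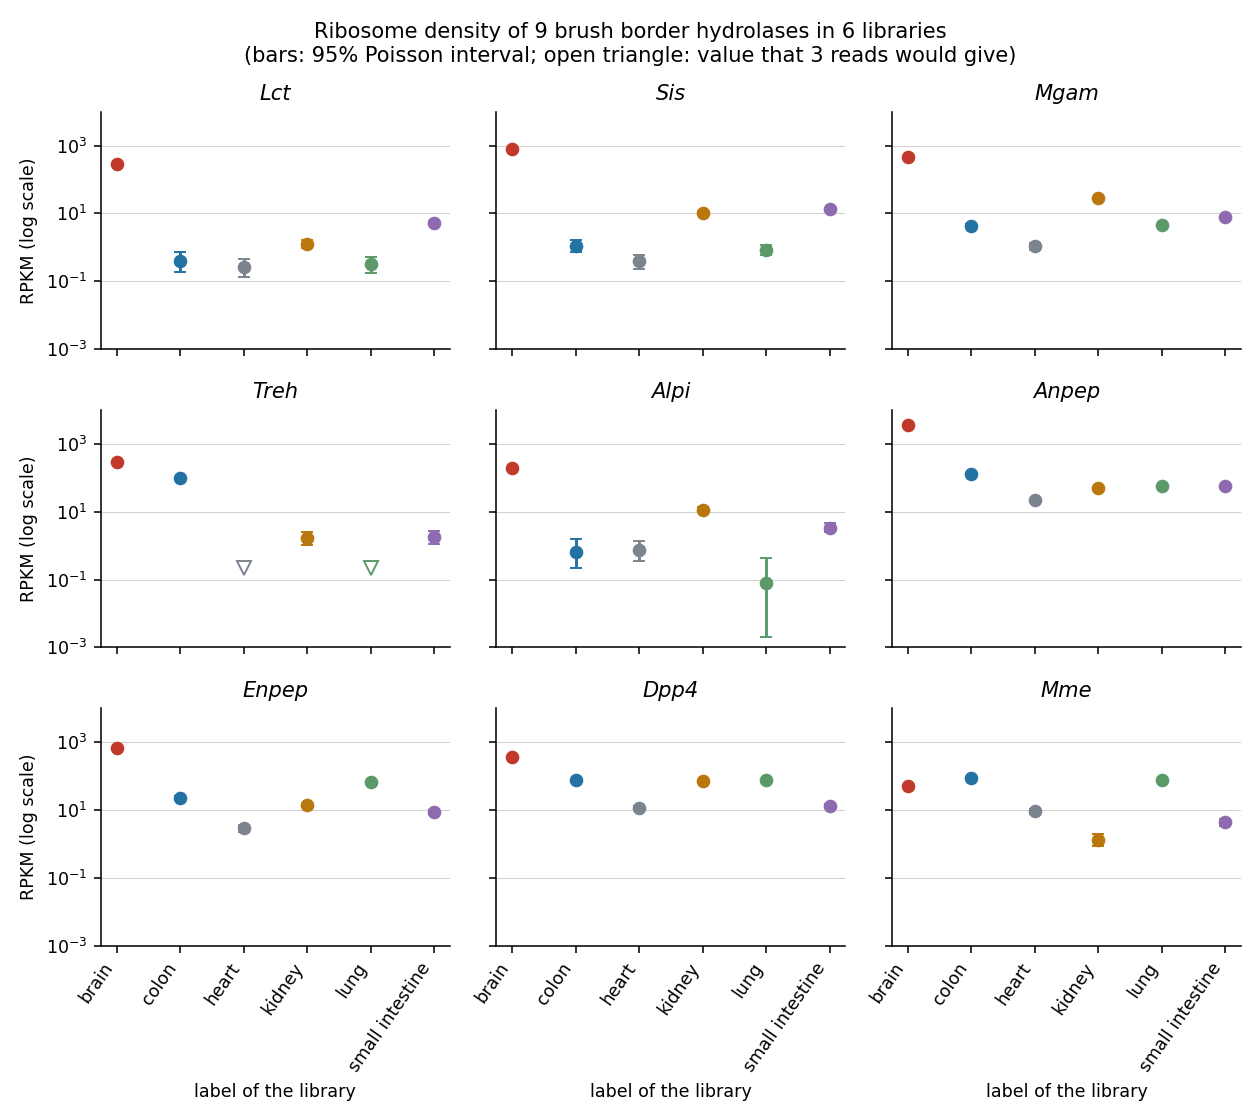
RPKM of each hydrolase (log axis) in the 6 libraries, named by their labels, with 95% Poisson intervals as bars and an open triangle at the value of 3 reads where no read was found. Every gene but Mme is highest in the library labelled brain, where Anpep reaches 3690.5 RPKM.

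Lactase, which splits lactose, is encoded on chromosome 1 (GRCm39, 1:128212493-128256055, minus strand) with a CDS of 5793 nt. It stood at 283 RPKM in the library labelled brain from 17416 reads. It stood at 0.383, 0.253, 1.23, 0.313 and 5.15 RPKM under the colon, heart, kidney, lung and small intestine labels, from 10, 12, 54, 14 and 228 reads. Lactase was thus high in the library with small intestine markers alone, and its next highest value, in the library labelled small intestine, was 54.9-fold lower. Its levels in the libraries labelled colon, lung and heart were neighbors in order whose counting intervals overlapped.

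Sucrase-isomaltase, which splits sucrose and the ends of starch fragments, is encoded on chromosome 3 (3:72795890-72875196, minus strand) with a CDS of 5454 nt. It stood at 779 RPKM in the library labelled brain from 45163 reads, rank 145 of its mRNAs by RPKM. It stood at 1.10, 0.381, 10.4, 0.830 and 13.0 RPKM under the colon, heart, kidney, lung and small intestine labels. The order of the 6 libraries was the same as for lactase, and the library labelled small intestine was again second, 60.0-fold lower.

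The ratio of Lct to Sis asks which side of the weaning switch dominated at 4 weeks. It was 0.363 in the library labelled brain (95% interval 0.357 to 0.369), so that sucrase-isomaltase had 2.75 times the ribosome density of lactase. In the library labelled small intestine it was 0.397 (0.338 to 0.464), an interval that overlaps that of the library labelled brain. In the library labelled kidney, which held the colon markers, it was 0.118 (0.0870 to 0.156), below both. The other libraries had 10 to 14 reads of Lct each, and their ratios of 0.349 (0.151 to 0.743), 0.665 (0.290 to 1.48) and 0.377 (0.187 to 0.718) under the colon, heart and lung labels could not be told from that of the library labelled brain at this depth. Sucrase-isomaltase exceeded lactase in all 6 libraries, with the interval in the library labelled heart reaching past 1.

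Lactase was still translated at a level few mRNAs reach, with rank 442 in the library labelled brain, above 97.6% of the mRNAs listed in any library. Other genes that mark the suckling or the adult enterocyte gave a mixed picture there. Prdm1, a repressor of the adult program, had 1 read in the library labelled brain. Ass1, an enzyme of arginine synthesis that is high in suckling enterocytes, stood at 149 RPKM and Arg2, an arginase of the adult enterocyte, at 19.6 RPKM. Cubn and Amn, the endocytic receptor pair cubilin and amnionless, stood at 269 and 74.4 RPKM, and Fcgrt, the neonatal Fc receptor, at 68.8 RPKM. The other listed suckling-type genes, Glb1 and Dab2, stood lower, at 25.7 and 13.5 RPKM. Slc2a5, the other listed adult-type gene, stood at 25.6 RPKM. Of the 7 suckling-type genes none was at least 4-fold higher and 3 were at least 4-fold lower in the library labelled brain than in that labelled colon, against 18.9% and 26.1% of all mRNAs. Several of these genes are also known in kidney, and 5 of the 7 were highest in the library labelled colon, against 15.3% of all mRNAs. There Ass1 reached 4600 RPKM. Against the library labelled kidney, 2 of 6 suckling-type genes with enough reads were at least 4-fold higher under the brain label. So were 2 of 2 adult-type genes, against 11.8% of all mRNAs. None of either list was at least 4-fold lower under the brain label, against 25.4%.

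**Figure D2:**
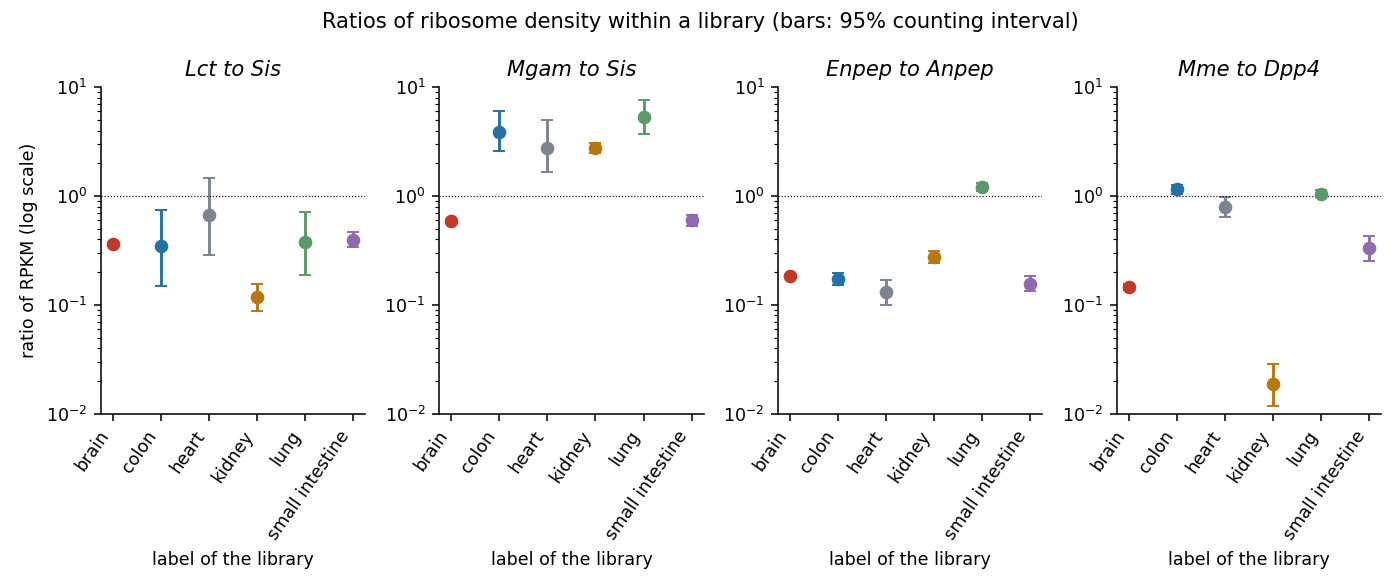
Ratios of RPKM between 2 hydrolases within each library (log axis), named by the labels, with 95% counting intervals as bars and a dotted line at equal density. Lct lies below Sis in every library, Mgam lies above Sis under the colon, heart, kidney and lung labels, and Mme lies furthest below Dpp4 under the kidney label.

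Maltase-glucoamylase, the partner of sucrase-isomaltase in starch digestion, is encoded on chromosome 6 (6:40605765-40746057, plus strand). Both enzymes belong to glycoside hydrolase family 31 and carry repeated catalytic domains, each with a nucleophile motif that a search of the CDSs found 2 times in Sis and 4 times in the listed Mgam CDS. The copies are shown because their likeness bears on the counting of reads, with the motif in capitals.
Sis, copy 1: ggactcTGGATTGACATGAATGAAgtttcc
Sis, copy 2: ggcttgTGGATTGACATGAATGAGccttcc
Mgam, copy 1: ggaattTGGATTGATATGAACGAAgtctcc
Mgam, copy 2: ggcctaTGGATTGATATGAATGAAccttcc
Mgam, copy 3: ggcctgTGGATTGATATGAATGAAccttcc
Mgam, copy 4: ggcctgTGGATTGATATGAATGAAccttcc
Copies 3 and 4 of Mgam were identical over all 30 bases, while copies of Sis and Mgam shared between 21 and 27 of 30. Beside Sis and Mgam, 1 further CDS of the 18154 searched held the motif on its coding strand. Of the 29-nt windows of the Mgam CDS, 68.5% were unique among the full transcripts of 18306 listed mRNAs. Of the rest, 3240 recurred within Mgam itself and 171 were shared with Mgam2-ps. All windows of Sis and of Lct were unique. The authors excluded reads with several matches, so reads from the repeated stretches would not enter the deposited RPKM of Mgam.

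In the library labelled brain Mgam stood at 460.4 RPKM from 53116 reads, lower than Sis. It stood at 4.24, 1.06, 28.9, 4.39 and 7.77 RPKM under the colon, heart, kidney, lung and small intestine labels. The ratio of Mgam to Sis was 0.591 (0.584 to 0.599) under the brain label and 0.598 (0.533 to 0.672) under the small intestine label. It was 3.85 (2.57 to 5.99), 2.78 (1.65 to 4.97), 2.76 (2.49 to 3.07) and 5.29 (3.73 to 7.71) under the colon, heart, kidney and lung labels. Sis was therefore the denser of the pair in the libraries labelled brain and small intestine, and Mgam in the other 4. The first of these depended on the CDS length used. Divided by its unique positions in place of its CDS length, Mgam in the library labelled brain came to 674 RPKM, still below Sis. Divided by the 5481 nt of the other full isoforms, in place of the 10848 nt listed, it came to 911 RPKM, above Sis. The reads were those counted over the listed CDS in each case, so 911 RPKM is not a measured density of the shorter isoforms.

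Trehalase, which splits trehalose and is anchored by a lipid tail, is encoded on chromosome 9 (9:44584530-44597602, plus strand). It stood at 299 RPKM in the library labelled brain from 5492 reads and at 97.5 RPKM in that labelled colon from 759 reads. In the libraries labelled kidney and small intestine it stood at 1.68 and 1.74 RPKM, from 22 and 23 reads, and it was not listed in those labelled heart and lung, where 3 reads would have given 0.212 and 0.225 RPKM. Trehalase was therefore the one disaccharidase with a high value in both the library with small intestine markers and that with kidney markers, while the colon label held Lct, Sis and Mgam at 0.136%, 0.141% and 0.920% of their values under the brain label. Against the library labelled lung, Treh was at least 1331-fold higher under the brain label and at least 434-fold higher under the colon label, with the floor of 3 reads per library.

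Intestinal alkaline phosphatase, a marker of the mature enterocyte that removes phosphate from lipids and nucleotides, is encoded on chromosome 1 (1:87025724-87029328, minus strand). Alpi stood at 189 RPKM in the library labelled brain from 3332 reads and at 11.6 RPKM in that labelled kidney from 146 reads. In the libraries labelled colon, heart, lung and small intestine it stood at 0.668, 0.735, 0.0778 and 3.38 RPKM, from 5, 10, 1 and 43 reads. Of its 29-nt windows 92.8% were unique, the rest being shared with Akp3 and Alppl2. Akp3, a second intestinal phosphatase, had 44 reads and 2.47 RPKM in the library labelled brain. Alpl, the phosphatase of kidney, bone and liver, ran the other way, with 214 RPKM under the colon label and 4.90 RPKM under the brain label.

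The 4 peptidases were encoded on chromosomes 7 (Anpep, 7:79471551-79510807, minus strand), 3 (Enpep, 3:129062824-129126369, minus strand), 2 (Dpp4, 2:62159798-62242576, minus strand) and 3 (Mme, 3:63148889-63293451, plus strand). Anpep, Enpep and Mme are zinc enzymes that hold the metal through a short motif, and Dpp4 is a serine enzyme. The stretches of CDS around these motifs, in capitals, are shown to tell the families apart.
Anpep: gattgctCACGAGCTGGCCCATcagtggtt
Enpep: ggttgccCACGAACTTGTACACcagtggtt
Mme: cattggaCATGAAATCACACATggatttga
Dpp4: atttggGGCTGGTCATATGGAGGGtatgta
The stretches of Anpep and Enpep, both of peptidase family M1, were the same at 23 of 30 bases, while Mme matched Anpep at 14 and Enpep at 13. The zinc motif is short and was found in 3.40% of CDSs, whereas the serine motif was found in 4 CDSs. All 29-nt windows of the 4 peptidases were unique.

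Aminopeptidase N, which removes neutral amino acids from peptide ends, was the densest of the 9 genes in the library labelled brain, at 3690.5 RPKM from 113742 reads, rank 21 of that library. It stood at 133, 22.0, 49.5, 57.2 and 55.5 RPKM under the colon, heart, kidney, lung and small intestine labels. It had at least 522 reads in each library. The library labelled colon was second and 27.7-fold below the library labelled brain, and the intervals of the lung and small intestine labels, and of the small intestine and kidney labels, overlapped.

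Glutamyl aminopeptidase, which removes acidic residues and cleaves angiotensin II, stood at 679 RPKM in the library labelled brain from 20464 reads. It stood at 23.1, 2.89, 13.7, 69.4 and 8.72 RPKM under the colon, heart, kidney, lung and small intestine labels. Its second highest library was that labelled lung, and no 2 neighbors in the order overlapped. Relative to Anpep, Enpep was at 0.184 and 0.174 under the brain and colon labels, with overlapping intervals (0.181 to 0.187 and 0.153 to 0.197), and at 1.21 (1.12 to 1.31) under the lung label.

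Dipeptidyl peptidase 4, which cuts dipeptides after proline or alanine and inactivates incretins, was broadly present. It stood at 362 RPKM in the library labelled brain from 8767 reads, and at 75.8, 11.4, 71.7, 75.4 and 13.2 RPKM under the colon, heart, kidney, lung and small intestine labels. The libraries labelled colon, lung and kidney were neighbors whose intervals overlapped, and the order of colon and kidney labels turned when Kri1, which took 22.1% of the reads of the library labelled kidney and 6.79% of those of that labelled colon, was left out of the totals (ratio of colon over kidney label 1.06 as deposited, 0.884 without Kri1).

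Neprilysin, which degrades natriuretic peptides, enkephalins and other short peptides, had a different distribution. It stood at 87.3 RPKM under the colon label from 885 reads, at 79.6 RPKM under the lung label from 1384 reads and at 52.8 RPKM under the brain label from 1264 reads. In the libraries labelled heart, kidney and small intestine it stood at 9.12, 1.35 and 4.36 RPKM. The intervals of the colon and lung labels overlapped, and that of the brain label lay below both. Relative to Dpp4, Mme was at 1.15 (1.04 to 1.27) under the colon label, 1.06 (0.978 to 1.14) under the lung label, 0.146 (0.138 to 0.155) under the brain label and 0.0188 (0.0119 to 0.0284) under the kidney label. The library labelled kidney, with the colon markers, thus held Dpp4 at 53.2 times the density of Mme.

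**Figure D3:**
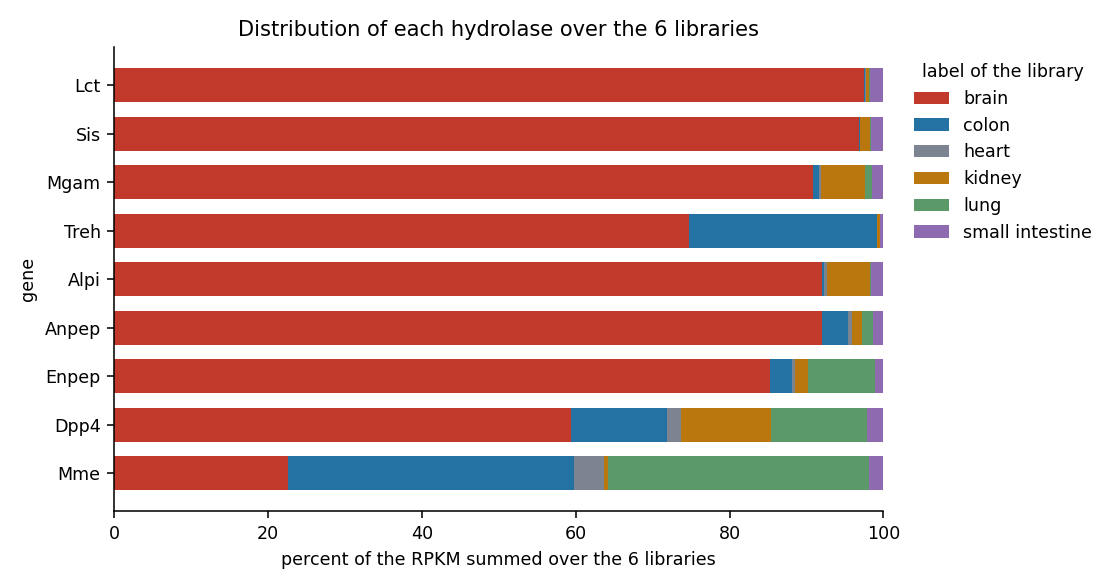
Share of the RPKM summed over the 6 libraries that each library holds (percent, horizontal axis), for each hydrolase, with colors for the labels of the libraries. The library labelled brain holds 97.5% of Lct, 74.8% of Treh, 59.4% of Dpp4 and 22.5% of Mme, and Treh is the one disaccharidase with a large part under the colon label.

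The hydrolases differed in how far they were concentrated in the library labelled brain, within the disaccharidases as within the peptidases. The share of the summed RPKM held by the library labelled brain was 97.5% for Lct, 96.8% for Sis, 92.0% for Alpi, 90.9% for Mgam and 74.8% for Treh. It was 92.1% for Anpep, 85.2% for Enpep, 59.4% for Dpp4 and 22.5% for Mme. The summed RPKM of the 4 peptidases exceeded that of the 4 disaccharidases 2.63-fold under the brain label, 3.09-fold under the colon label, 3.23-fold under the kidney label and 2.96-fold under the small intestine label, but 26.8-fold under the heart label and 50.9-fold under the lung label. Anpep made up 77.1% of the peptidase RPKM in the library labelled brain and 20.3% in that labelled lung.

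Between the library labelled brain and that labelled colon, which set a gut-like against a kidney-like set of markers, 7 of the 9 hydrolases were at least 4-fold higher under the brain label and none was at least 4-fold lower. Over all mRNAs compared the shares were 18.9% and 26.1%. The ratios were 738 (401 to 1539) for Lct, 709 (487 to 1075) for Sis, 282 (121 to 870) for Alpi, 109 (94.8 to 125) for Mgam, 29.4 (26.2 to 33.1) for Enpep, 27.7 (26.5 to 29.1) for Anpep and 4.77 (4.43 to 5.14) for Dpp4. The pair below the threshold were Treh at 3.06 (2.84 to 3.31) and Mme at 0.605 (0.555 to 0.660). The median log2 ratio of the 9 genes was 4.88, and that of all mRNAs with reads in both libraries was -0.07.

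Between the libraries labelled brain and kidney, which held the small intestine and the colon markers, all 9 hydrolases were at least 4-fold higher under the brain label, against 11.8% of all mRNAs, and none was at least 4-fold lower, against 25.4%. The ratios were 230 (176 to 306) for Lct, 178 (117 to 284) for Treh, 74.5 (67.8 to 82.1) for Sis, 74.5 (70.2 to 79.2) for Anpep, 49.5 (44.1 to 55.7) for Enpep, 39.2 (26.0 to 62.0) for Mme, 16.3 (13.8 to 19.3) for Alpi, 15.9 (15.3 to 16.6) for Mgam and 5.05 (4.75 to 5.36) for Dpp4. Lactase and trehalase were thus the most unequal of the 9 between these libraries, and Dpp4, Mgam and Alpi the least. The median log2 ratio of the 9 genes was 5.63 and that of all mRNAs with reads in both libraries 0.30. Kri1 took 22.1% of the reads under the kidney label and 2.01% under the brain label, which raises these ratios. With Kri1 and mitochondrially encoded mRNAs left out of the totals, 8 hydrolases stayed at least 4-fold higher, against 9.17% of all mRNAs, and Dpp4 did not.

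**Figure D4:**
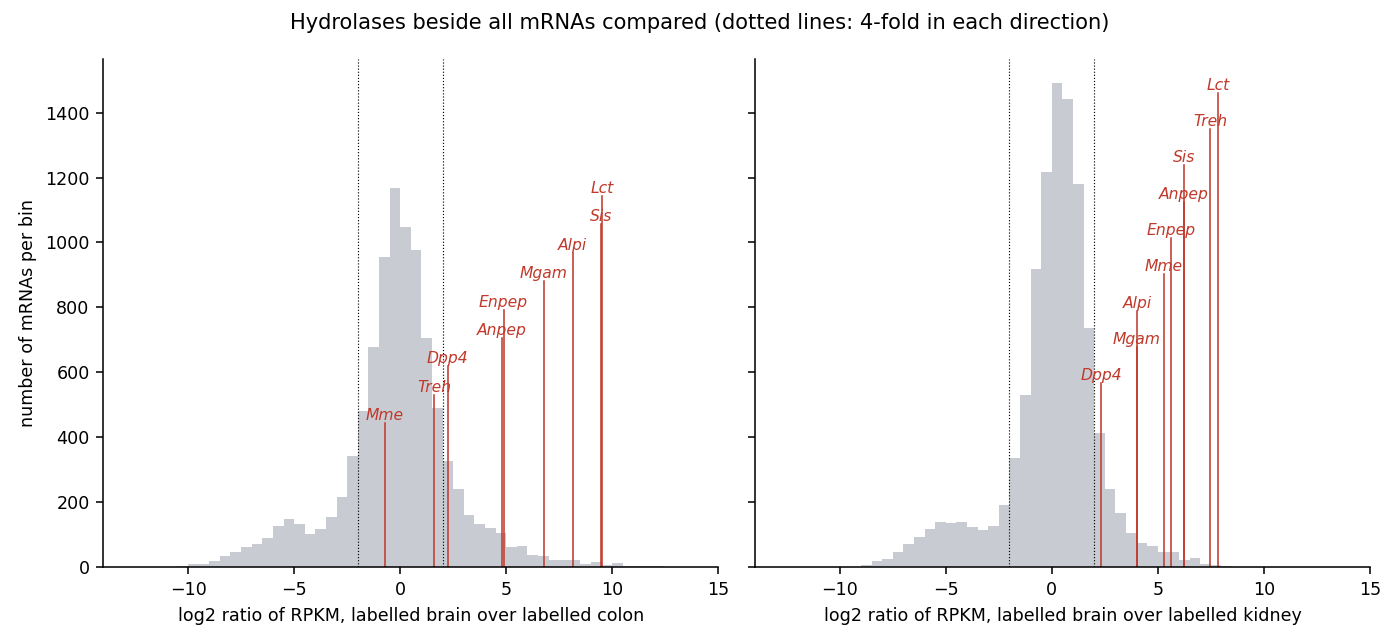
Number of mRNAs (vertical axis) by log2 ratio of RPKM between the libraries labelled brain and colon (left) and brain and kidney (right), with the 9 hydrolases marked by red lines whose height has no meaning and dotted lines at 4-fold. On the left 7 hydrolases lie past the right dotted line and Mme lies left of 0, and on the right all 9 lie past it.

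The question of which hydrolases the libraries with small intestine and with kidney markers share was put by asking for at least 4 times the highest value of the heart, lung and small intestine labels in both. Only Treh among the 9 met this, 56.0-fold above, as did 2.07% of all mRNAs. Anpep came next, with its value under the colon label 2.33 times that under the lung label. For Dpp4 the lower of the brain and colon labels was 1.01 times the value of the lung label, for Mme 0.664 times and for Enpep 0.333 times. Enpep was therefore higher in the library labelled lung than in that labelled colon, and the intervals of Dpp4 and of Mme overlapped between these libraries. With other scalings of the libraries, Mme was 1.13 to 1.36 times as high under the colon label as under the lung label, against 1.10 times as deposited. The library labelled lung also held the highest values of all 3 endothelial markers (summed 1988 RPKM, against 22.7 to 419.9 in the others) and of 4 of 5 leukocyte markers (summed 843 RPKM, against 25.4 to 78.3 in the others, with Csf1r highest under the small intestine label). The 4 fibroblast markers summed to 3951 RPKM under the lung label, against 377 to 4137 RPKM in the others, with 1 of 4 highest under the lung label. The part of endothelial cells, leukocytes and fibroblasts in the peptidase values was not tested.

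Low values of the hydrolases can be read beside the small intestine markers of the same library. In the library labelled colon the 4 small intestine markers stood at 0.0397% to 1.57% of their values under the brain label. Lct, Sis, Alpi and Mgam lay within that range, while Enpep at 3.40%, Anpep at 3.61%, Dpp4 at 21.0%, Treh at 32.6% and Mme at 165% lay above it. In the library labelled lung the markers stood at 0.0733% to 0.267%, with Lct and Sis inside, Alpi and Treh below and the other 5 above.

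In the library labelled small intestine, which held the brain markers, the small intestine markers stood at 0.827% to 2.50% of the brain label, and 6 of the 9 hydrolases lay within that range. Treh lay below it at 0.583%, and Dpp4 at 3.65% and Mme at 8.25% above it. The levels were thus far below those under the brain label, while the ratios of Lct, Mgam and Alpi to Sis had overlapping intervals under both labels, with Alpi to Sis at 0.242 (0.234 to 0.251) and 0.261 (0.187 to 0.356). Enpep to Anpep, at 0.184 (0.181 to 0.187) and 0.157 (0.134 to 0.183), and Lct to Mgam also had overlapping intervals. Ratios with Treh, Mme or Dpp4 had separate intervals. Treh to Sis was 0.384 (0.373 to 0.395) under the brain label and 0.134 (0.0843 to 0.203) under the small intestine label. Mme to Dpp4 was 0.146 (0.138 to 0.155) and 0.330 (0.251 to 0.431), Mme to Anpep 0.0143 (0.0135 to 0.0151) and 0.0785 (0.0614 to 0.0992), and Dpp4 to Anpep 0.0980 and 0.238 (0.206 to 0.274). Whether these reads came from the tissue named on the label or from another library was not tested. Conversely, the 4 kidney markers in the library labelled brain stood at 0.827% to 4.16% of their values under the colon label. In the libraries labelled heart and kidney the range of the small intestine markers was wide, up to 24.2% and 446%, because of Lypd8.

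**Figure D5:**
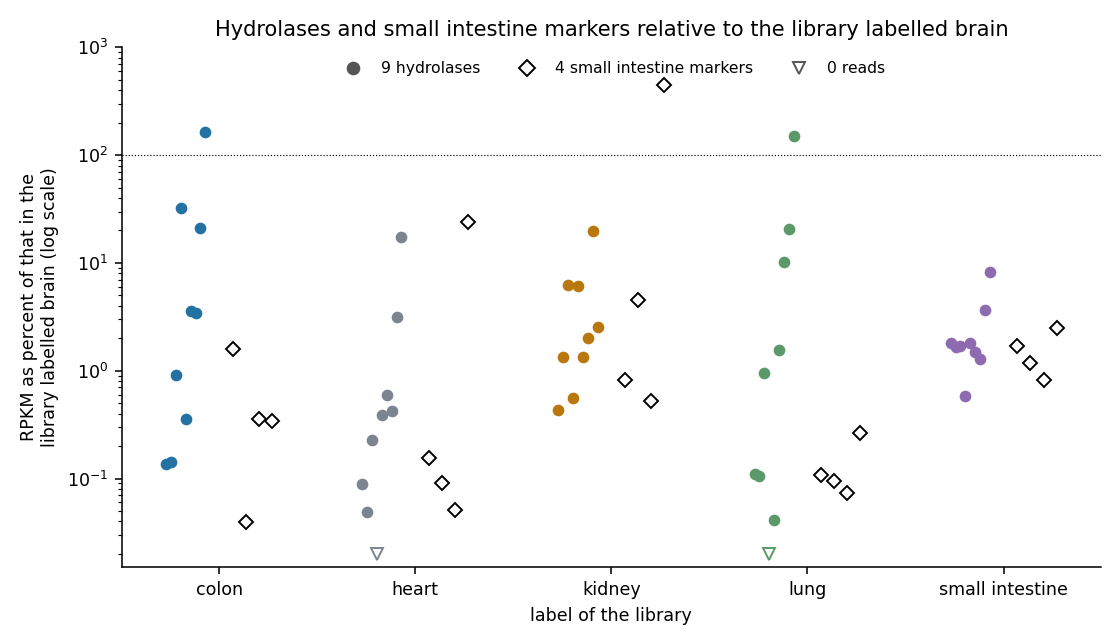
RPKM as percent of the value in the library labelled brain (log axis) for the 9 hydrolases (filled circles) and the 4 small intestine markers (open diamonds) in the other 5 libraries, with points spread sideways for legibility and open triangles for 0 reads. Under the small intestine label both sets lie between 0.583% and 8.25%, and under the colon label Enpep, Anpep, Dpp4, Treh and Mme lie above every marker.

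Of 16 other brush border enzymes, 10 were highest in the library labelled brain and 3 in that labelled colon, against 15.1% and 15.3% of all mRNAs. Between these libraries 8 of the 15 with enough reads were at least 4-fold higher under the brain label, against 18.9% of all mRNAs, and 2, Folh1 and Alpl, at least 4-fold lower, against 26.1%. Naaladl1, a peptidase of the ileum, stood at 897 RPKM under the brain label and had 2 reads under the colon label (ratio 4516, 1250 to 37297). Enpp7, the alkaline sphingomyelinase, had 10758 reads and 1 read, and Plb1, a phospholipase, 7421 and 0 reads. Folh1, which trims glutamate from folates, ran the other way at 9.67 RPKM under the brain label and 199 RPKM under the colon label.

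Mep1a, Mep1b, Ggt1 and Xpnpep2 met the condition for sharing that only Treh met among the 9 hydrolases. The meprin subunits Mep1a and Mep1b stood at 519 and 631 RPKM under the brain label and at 218 and 105 RPKM under the colon label. They were also present under the kidney label, at 172 and 87.9 RPKM, where Treh was at 1.68 RPKM. Ggt1, gamma-glutamyltransferase, stood at 77.8 RPKM under the brain label and 165 RPKM under the colon label, and at 2.71 RPKM or less in the other 4 libraries. Ace, like Enpep an enzyme of the angiotensin pathway, was highest in the library labelled lung at 192 RPKM.

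Of 13 genes of microvillus structure 12 were highest under the brain label, against 15.1% of all mRNAs, among them Vil1, villin, at 1330.3 RPKM. At least 4-fold higher there than under the colon label were 7 of the 13, against 18.9% of all mRNAs. Pdzk1, a scaffold for transporters, was the exception at 513 RPKM under the colon label and 253 RPKM under the brain label. Myo1a, the motor that ties the actin core to the membrane, was at 966 RPKM under the brain label and 149 RPKM under the kidney label, with 4 reads under the colon label.

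Of 9 transporters 7 met the condition for sharing, against 2.07% of all mRNAs, and the exceptions were the peptide transporters. Slc5a1, which takes up glucose and galactose, stood at 657 RPKM under the brain label and 79.1 RPKM under the colon label, and Slc5a2, its relative of the proximal tubule, at 8.94 and 209 RPKM. Slc15a1, the peptide transporter of the gut, stood at 499 RPKM and 0.417 RPKM, and Slc15a2, its relative of kidney and other tissues, had 1 read under the brain label and stood at 15.8 RPKM under the colon label. Slc3a1 and Slc7a9, which together carry cystine and basic amino acids, were high under both labels, at 345 and 113 RPKM against 780 and 35.7 RPKM.

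Of 9 listed factors that are known to drive brush border genes, 6 were highest under the brain label, against 15.1% of all mRNAs. Compared with the colon label, 6 of 9 were at least 4-fold higher under the brain label, against 18.9% of all mRNAs. Compared with the kidney label, 4 of 9 were, against 11.8%. Cdx1 stood at 7.72 RPKM under the brain label and at 8.86 RPKM under the kidney label, with intervals that overlapped. Cdx2, the intestinal homeobox factor, stood at 52.0 RPKM under the brain label and 16.8 RPKM under the kidney label and had 0 reads under the colon label. Hnf4g stood at 396 RPKM under the brain label and at 16.9 RPKM or less elsewhere. Hnf4a, active in gut and kidney alike, stood at 134 RPKM under the brain label and at 85.4 RPKM under the colon label. Gata5, with 605 reads under the brain label, had 0 reads under the colon label.

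Short core motifs of 3 of these factor families are given as found in the 250 bases before the start sites of the 9 genes, on both strands, in RefSeq promoters of build GRCm38.p6, where all 9 matched with 11 promoters. These coordinates are not on the build of the files. TTTATG, a core of Cdx sites, was found in Lct and Sis and in 12.4% of all genes. AGATAA, a core of Gata sites, was found in Lct, Mgam and Dpp4 and in 11.4% of all genes, and CAAAGT, a core of Hnf4 sites, in Treh, Alpi and Mme and in 14.1%. Lct and Sis had nearly the same distribution over the libraries, but AGATAA was found in Lct and not in Sis. Whether any of these motifs bears on the distribution was not tested. The TTTATG matches of Lct and Sis are shown as an example, with the core in capitals as it lies on the strand of the gene.
Lct, 31 bases before the start: cttggctgtgctCATAAAgtcaggattcct
Sis, 43 bases before the start: gtgcaataaaacTTTATGagtagtcaatat
A match of 6 letters is a description of the sequence and not a site of binding.

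Likeness of distribution was measured over the 6 libraries as the share of the summed RPKM that would have to move between libraries to turn one gene's profile into the other's. Lct and Sis were 0.879 percentage points apart, Mgam and Alpi 1.38 points, and Lct and Mme 75.0 points. Among 10311 mRNAs the nearest to Lct were Mptx2, Olfm4 and Npc1l1, and the nearest to Sis were Ccl25, Lgals2 and Clca4b. The nearest to Treh were Slc28a1, Slc13a1 and Rhbg, and the nearest to Anpep was Xpnpep2, at 1.86 points. For Dpp4 no mRNA lay within 5 points, the nearest being Camsap3 at 6.06 points, and for Mme the nearest was Flvcr2 at 4.06 points. Profiles over 6 libraries are few points, and genes with nearly all reads in the library labelled brain are necessarily near each other.

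The 9 CDSs were all longer than the median CDS of 1320 nt, from 1662 nt for Alpi to 10848 nt for Mgam. Their use of G or C at the last codon position spread widely, from 33.5% in Sis to 66.8% in Anpep, and 4 of 9 lay above the median of 58.9%. Lct, at 62.1%, and Sis, the lowest of the 9, differed in this measure although their distribution over the libraries was nearly the same.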

How the data were processed

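The 6 tissue Ribo-seq libraries were used, 1 per label. The deposited files give RPKM, with 1 value for each mRNA and library. Per the labels, tissue was lysed with cycloheximide and digested with RNase I. The study's methods are written for the macrophage libraries and taken to hold here. By them, the authors trimmed reads with Cutadapt and aligned them by STAR against 1 mRNA per gene. That mRNA was the one with the longest CDS in Ensembl GRCm39 release 107. Multi-mapped reads were left out, and the rest were counted where they aligned to the CDS. RPKM times CDS length gave whole reads for 100% of values in each library (tolerance 0.01 of a read), from which Poisson, Clopper-Pearson and exact conditional ratio intervals at 95% were computed. Reads carried no molecular identifiers, so PCR copies are counted as reads.

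Gene symbols, coordinates and CDSs came from GENCODE release M39 on GRCm39, a later annotation of the same build, and 13 mRNAs had no symbol. A gene was called higher at a ratio of 4 or more with at least 10 reads in the higher library. The genes named were the 9 hydrolases, the genes of the lists described and the 3 nearest profiles per hydrolase among mRNAs with at least 100 reads and a highest value of at least 10 RPKM. Some listed genes are not reported here. The hydrolases and all lists were chosen with earlier results of these data known. Of the alternatives tried, 3 settings were chosen after seeing the data. The use of unique positions for the ratio of Mgam to Sis was also added then, though planned for other values. No test was made, since each label has 1 library. Scripts ran in Python 3.11.15 with scipy 1.17.1, pandas 2.3.3, matplotlib 3.10.9 and numpy 2.4.6. On simulated reads drawn from the deposited values, 100% of reads were recovered and the ratio interval held the true value for 94.5% of 200 genes.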

Additional observations from a re-analysis of the deposited data

How the results depend on the processing

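The counts of hydrolases at least 4-fold higher under the brain label stayed between 6 and 8 of 9 against the colon label and between 8 and 9 against the kidney label, over the alternatives for scaling, fold, minimum of reads and depth. Where the count against the kidney label was 8, Dpp4 was the gene lost. The condition for sharing was met by Treh alone under every alternative but a fold of 2, where it was met by 2 genes, Treh and Anpep. Without division by CDS length the ratio of Lct to Sis under the brain label was 0.386. Its other alternatives moved it by less than its interval. Alternatives added after seeing the data moved the ratio of Mgam to Sis. With unique positions it was 0.861 under the brain label, 0.872 under the small intestine label and 4.03 under the kidney label. The CDS length of the other full isoforms was also used, with the reads still those of the listed CDS. The ratio was then 1.17 and 1.18 under the brain and small intestine labels. It was 7.63, 5.50, 5.47 and 10.5 under the colon, heart, kidney and lung labels. With this length the order of Mgam and Sis turned under the brain and small intestine labels, while with unique positions Sis stayed above Mgam there. Leaving Kri1 out of the totals multiplied the levels by 1.00 to 1.28, and median-of-ratios size factors by 0.737 to 1.17. The same 8 hydrolases were highest under the brain label with each scaling. No paired analysis was possible because each tissue had 1 library. Values from under 30 reads, as for Lct under 3 labels, are limited by depth.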
